A study of Homo sapiens with 6 samples.

Results

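The genes of MHC class I antigen presentation described here were the heavy chain genes HLA-B, HLA-C, HLA-E and HLA-F, the light chain gene B2M, the peptide transporter genes TAP1 and TAP2, the tapasin gene TAPBP and the transactivator gene NLRC5. They were chosen by gene symbol, with earlier results of these data known, and all 9 members were found among the 38843 genes of the deposited table. Messenger RNA was sequenced from PC-3, a long-established human prostate cancer line that grows without androgen, labelled as wild type. The groups were 3 libraries labelled control, with no vehicle named, and 3 libraries of cells given 5 µM cepharanthine hydrochloride, a bisbenzylisoquinoline alkaloid of plant origin as its salt. Both groups were kept in DMEM with serum and collected on day 3. The comparison asked which class I transcripts differ under the compound. Nothing in the labels ties each library to a culture of its own. The p-values therefore measure only how far these 6 libraries spread, and that spread may be technical.

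MHC class I molecules are carried by most nucleated cells and show peptides from inside the cell to CD8 T cells and natural killer cells. Peptides cut by the proteasome are pumped into the endoplasmic reticulum by a transporter built of TAP1 and TAP2, trimmed there, and loaded with the help of tapasin onto a heavy chain bound to beta-2-microglobulin. HLA-B and HLA-C are classical heavy chains that present many peptides, whereas HLA-E and HLA-F are nonclassical heavy chains that are recognised mainly by receptors of natural killer cells. NLRC5, which responds to interferon gamma, acts with the RFX, CREB/ATF and NF-Y factors at an enhancer shared by class I promoters. An interferon-stimulated response element, bound by IRF factors, is also known in promoters of the pathway.

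The stretches of 200 bases before the transcription start are shown for HLA-B, HLA-C, B2M and TAP1, whose transcripts rose, and for TAP2 and TAPBP, which did not pass the test, because these members differed in response. They are from RefSeq on GRCh38.p14, read 5′ to 3′ on the strand of the gene, and 7 of the 9 members had an entry there, without HLA-E and NLRC5. Capitals mark exact matches on either strand to a strict form of an interferon response element, GAAA, 2 bases of any kind and GAAA. They also mark TGACG followed after 15 to 25 bases by ATTGG on either strand, the cores of a CREB/ATF site and of an NF-Y site. Sites spelled with other letters are left in lower case.
HLA-B, chr6:31357180-31357379, minus strand: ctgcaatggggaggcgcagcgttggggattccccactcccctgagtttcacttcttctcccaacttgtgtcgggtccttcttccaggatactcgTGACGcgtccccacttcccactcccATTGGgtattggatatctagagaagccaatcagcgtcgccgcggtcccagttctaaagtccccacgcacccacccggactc
HLA-C, chr6:31272093-31272292, minus strand: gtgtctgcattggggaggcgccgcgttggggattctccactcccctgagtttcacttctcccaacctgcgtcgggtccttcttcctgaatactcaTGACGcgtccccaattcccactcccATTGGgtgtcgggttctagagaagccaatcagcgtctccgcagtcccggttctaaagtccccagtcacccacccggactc
B2M, chr15:44711317-44711516, plus strand: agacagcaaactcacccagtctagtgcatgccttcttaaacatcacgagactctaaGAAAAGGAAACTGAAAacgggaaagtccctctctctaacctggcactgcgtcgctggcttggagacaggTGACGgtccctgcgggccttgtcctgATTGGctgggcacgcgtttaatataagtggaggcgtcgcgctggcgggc
TAP1, chr6:32853705-32853904, minus strand: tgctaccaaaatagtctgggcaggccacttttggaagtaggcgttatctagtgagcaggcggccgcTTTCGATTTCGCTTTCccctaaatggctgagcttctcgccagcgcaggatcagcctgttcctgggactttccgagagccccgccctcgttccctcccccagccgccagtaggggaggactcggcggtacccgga
TAP2, chr6:32838740-32838939, minus strand: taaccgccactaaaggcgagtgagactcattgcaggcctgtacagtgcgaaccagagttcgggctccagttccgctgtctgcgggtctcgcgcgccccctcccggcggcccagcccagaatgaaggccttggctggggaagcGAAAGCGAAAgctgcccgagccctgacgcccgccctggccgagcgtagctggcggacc
TAPBP, chr6:33314079-33314278, minus strand: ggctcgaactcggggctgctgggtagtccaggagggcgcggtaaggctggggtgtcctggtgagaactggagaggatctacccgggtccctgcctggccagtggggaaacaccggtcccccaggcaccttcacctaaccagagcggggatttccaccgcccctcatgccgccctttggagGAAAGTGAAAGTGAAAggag
The TGACG and ATTGG letters were found together in the windows of HLA-B, HLA-C and B2M, as in 0.379% of the 35116 RefSeq windows of the same length. In HLA-B they began 106 and 81 bases before the start, in HLA-C 105 and 80, and in B2M 75 and 49. The paired GAAA letters were found in B2M, TAP1, TAP2, TAPBP and HLA-F, against 2.40% of all windows. Matches overlapped in B2M, TAP1 and TAPBP. The windows of HLA-B and HLA-C held no exact match, but looser spellings of the element were not searched, so a site there is not excluded. The table also has a second TAP1 start, whose window held neither set of letters. Members with the paired GAAA letters thus included genes that rose and genes that did not pass the test. These matches are descriptions of letters and show no binding.

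Cepharanthine-treated cells held more transcript of all 4 heavy chain genes, of B2M and of TAP1. Of the 9 members, 6 were called higher and 0 lower (quasi-likelihood test of edgeR, p under 0.05 after Benjamini-Hochberg adjustment), where 14.7% of the 21965 genes tested were called higher, 13.2% lower and 27.9% in either direction. DESeq2 called the same numbers of members, 6 higher and 0 lower, and at an unadjusted p under 0.05 edgeR likewise had 6 and 0. The median log2 fold change, treated over control, was 0.64 over the members and -0.02 over all genes tested. All 9 members passed the filter on low counts. Of the 9 members, 6 had every treated library above every control library, as did 21.8% of all genes tested. Groups were apart in either direction in 43.4% of all genes tested. These 6 were the called members, so their separation is no evidence apart from the calls. Values are given below as CPM, counts scaled to library size with TMM factors, for libraries 1, 2 and 3 of a group in that order.

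**Figure D1:**
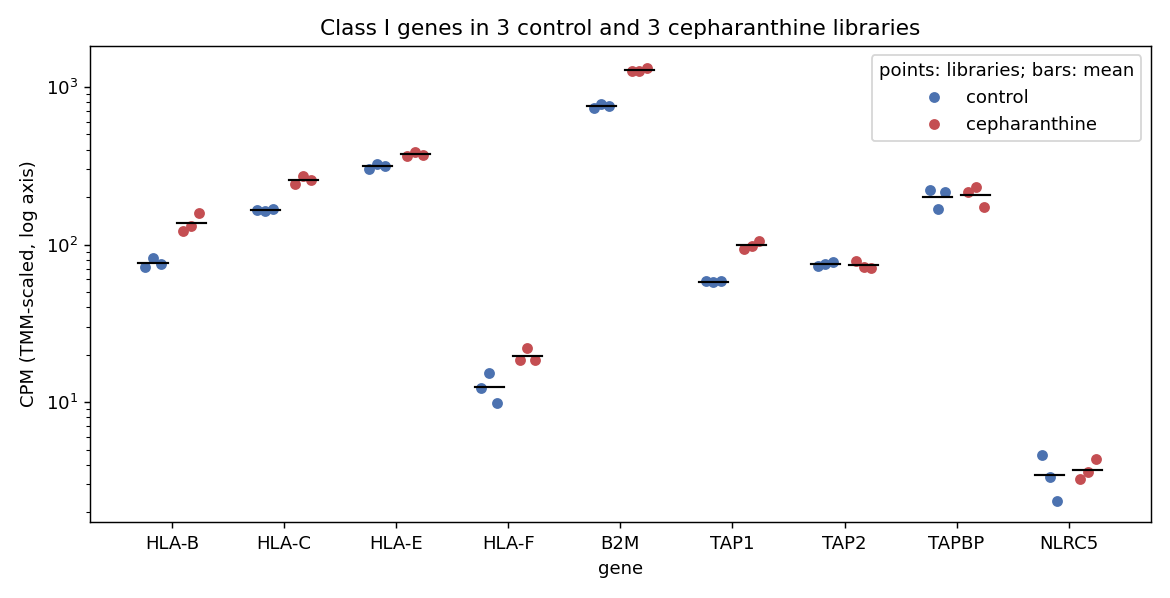
CPM of the 9 members on a log axis, with 1 point per library and a bar at the group mean. The treated libraries lie above the controls for HLA-B, HLA-C, HLA-E, HLA-F, B2M and TAP1, and the groups overlap for TAP2, TAPBP and NLRC5.

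Among the classical heavy chains, HLA-B (ENSG00000234745, GRCh38 chromosome 6 from 31269491 to 31357179, minus strand) had 71.6, 82.4 and 74.9 CPM in the control libraries and 121, 130.4 and 158 CPM in the treated libraries. The groups did not overlap, and treated replicate 3 was the highest library. HLA-B rose by a log2 fold change of 0.84 ± 0.11 (SE), or 1.79-fold (edgeR adjusted p = 3.4e-04). HLA-C (ENSG00000204525, chromosome 6 from 31268749 to 31272105, minus strand) had 165, 164 and 167 CPM in controls and 242, 273 and 255 CPM in treated cells. Its control libraries lay close together, and all treated libraries were above them. HLA-C rose by a log2 fold change of 0.64 ± 0.07, or 1.55-fold (edgeR adjusted p = 1.8e-04). The deposited HLA-B model overlaps 2615 bases of the HLA-C gene on the same strand, with 35 shared exonic bases in GENCODE 29, so reads there could not be told apart, and reads from similar class I sequence may be split between these genes. With the counts of both genes summed, in a fit added after the values were seen, the log2 fold change was 0.70 ± 0.07 (edgeR adjusted p = 1.2e-04).

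Among the nonclassical heavy chains, HLA-E (ENSG00000204592, chromosome 6 from 30489509 to 30494194, plus strand) had 301, 326 and 316 CPM in controls and 364, 386 and 371 CPM in treated cells. The groups did not overlap, but the rise was the smallest of the 6 called members, with a log2 fold change of 0.25 ± 0.07, or 1.19-fold (edgeR adjusted p = 0.0215). The call for HLA-E ended without control replicate 1 or 3 or cepharanthine replicate 1 or 2, with log2 fold changes of 0.22, 0.25, 0.27 and 0.23 and edgeR adjusted p between 0.0523 and 0.0897. HLA-F (ENSG00000204642, chromosome 6 from 29722775 to 29729351, plus strand) was the heavy chain with the lowest level, at 12.3, 15.3 and 9.89 CPM in controls and 18.6, 22.1 and 18.4 CPM in treated cells. Its control libraries were spread widely for their mean (12.5 ± 2.72 CPM), although all lay below the treated ones. HLA-F rose by a log2 fold change of 0.65 ± 0.17, or 1.57-fold (edgeR adjusted p = 0.0149), a call that ended without control replicate 1 or 3 or cepharanthine replicate 2, at log2 fold changes of 0.64, 0.51 and 0.56. HLA-F overlaps the antisense gene HLA-F-AS1, and whether counting used strand is not given in the sources used here. With the counts of both summed, the log2 fold change was 0.47 ± 0.10 (edgeR adjusted p = 0.00517).

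B2M, the light chain that all these heavy chains bind (ENSG00000166710, chromosome 15 from 44711487 to 44718877, plus strand), had 735, 782 and 759 CPM in controls and 1256, 1268 and 1327 CPM in treated cells. The distance between the groups was many times the spread within them. B2M rose by a log2 fold change of 0.76 ± 0.07, or 1.69-fold (edgeR adjusted p = 4.2e-05), the smallest adjusted p of the members.

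The transporter subunits differed from each other. TAP1 (ENSG00000168394, chromosome 6 from 32845209 to 32853978, minus strand) had 58.3, 57.7 and 58.6 CPM in controls and 93.6, 98.1 and 106 CPM in treated cells. The controls were nearly equal and all treated libraries were higher. TAP1 rose by a log2 fold change of 0.77 ± 0.07, or 1.71-fold (edgeR adjusted p = 6.9e-05). On the opposite strand TAP1 shares 456 exonic bases with PSMB8-AS1. That gene held 252 counts over the controls and 381 over the treated libraries, against 9522 and 18287 for TAP1. The PSMB9 model on that strand overlaps 8770 bases of TAP1 with 0 shared exonic bases in GENCODE 29, and held 333 and 800 counts. With TAP1 and PSMB9 counts summed, in a fit added after the values were seen, the log2 fold change was 0.78 ± 0.07 (edgeR adjusted p = 7.3e-05). TAP2 (ENSG00000204267, chromosome 6 from 32821833 to 32838770, minus strand) had 72.6, 75.2 and 77.7 CPM in controls and 78.2, 72.5 and 71.3 CPM in treated cells. These groups overlapped, and the log2 fold change was -0.02 ± 0.07 (edgeR adjusted p = 0.85). TAP2 shares 2064 exonic bases with the gene model AL669918 on the same strand, to which 235 and 195 counts were given against 12299 and 13545 for TAP2, and reads there could be split between them. Within each library the subunits were also compared by FPKM, the authors' values scaled to gene length and to sequenced fragments. The FPKM ratio of TAP1 to TAP2 was 1.07, 1.02 and 1.0 in controls and 1.59, 1.80 and 1.98 in treated cells (exact two-sided permutation p = 0.1, the smallest that 3 against 3 can give, and 0.12 after Benjamini-Hochberg adjustment over 6 ratios computed). On this scale both subunits were thus at about the same level in controls, and TAP1 was above TAP2 in every treated library.

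TAPBP, which encodes tapasin, the bridge between the transporter and the heavy chain (ENSG00000231925, chromosome 6 from 33299694 to 33314251, minus strand), had 221, 167 and 216 CPM in controls and 215, 233 and 172 CPM in treated cells. A low library in each group, control 2 and treated 3, made the groups overlap, and the log2 fold change was 0.04 ± 0.13 (edgeR adjusted p = 0.866). NLRC5 (ENSG00000140853, chromosome 16 from 56989485 to 57083524, plus strand) was the member with the lowest level, at 4.64, 3.33 and 2.37 CPM in controls and 3.23, 3.58 and 4.35 CPM in treated cells. These values rest on 120 to 306 counts per library, above the floor of 0.0426 to 0.0594 CPM that 3 counts give. The groups overlapped, with a log2 fold change of 0.11 ± 0.26 (edgeR adjusted p = 0.802) and the widest SE of the members. The sign for TAP2, TAPBP and NLRC5 was not stable: between fits their log2 fold changes ran from -0.08 to 0.21, from -0.08 to 0.27 and from -0.10 to 0.38.

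**Figure D2:**
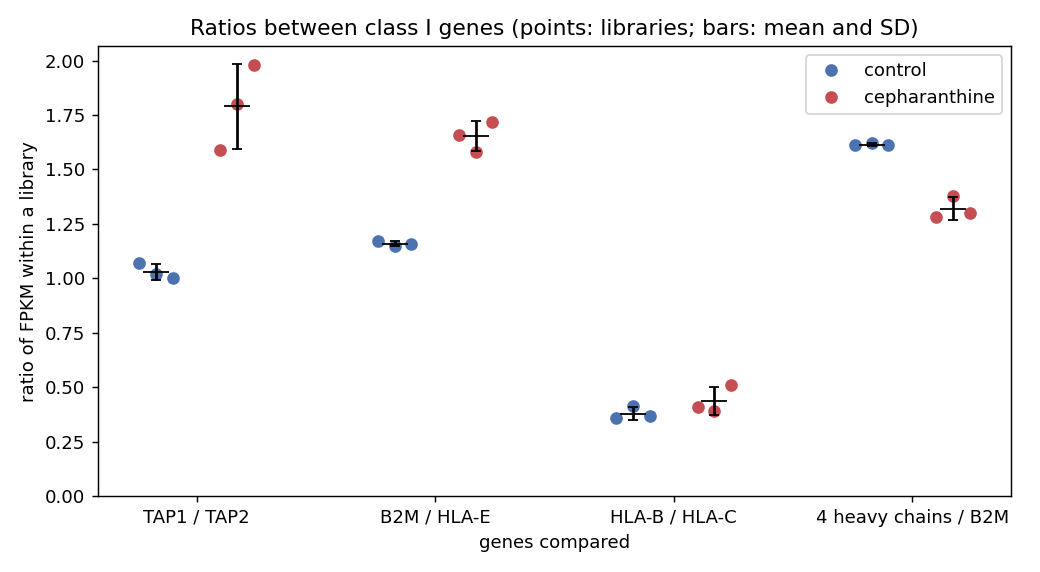
Ratios of FPKM within each library, with 1 point per library and bars for the mean and SD of 3 libraries. The TAP1 to TAP2 and B2M to HLA-E ratios are higher in all treated libraries, the ratio of the 4 summed heavy chains to B2M is lower in all of them, and the HLA-B to HLA-C ratios overlap.

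Levels between genes can be compared only per length, here in FPKM. The lengths implied by the deposited FPKM were within 10% of a constant multiple of the summed exons of all GENCODE 29 transcripts for 89.1% of 14952 genes. These are not the lengths of main transcripts, and for B2M the summed exons come to 6079 bases. In controls B2M was the highest member at 107 ± 7.14 FPKM (SD, n = 3) and HLA-E was next at 92.1 ± 6.83 FPKM, followed by HLA-C at 56.4 ± 1.97 FPKM. TAPBP at 33.9 ± 3.88 FPKM and HLA-B at 21.4 ± 2.38 FPKM came next. TAP1 at 10.4 ± 0.343 FPKM and TAP2 at 10.1 ± 0.471 FPKM did not differ beyond their spread, and HLA-F at 2.48 ± 0.644 FPKM and NLRC5 at 0.234 ± 0.0794 FPKM were the lowest. In treated cells B2M was at 188 ± 12.5 FPKM, HLA-E at 114 ± 3.10 FPKM and HLA-C at 90.9 ± 3.62 FPKM. HLA-B at 39.9 ± 6.91 FPKM and TAPBP at 36.1 ± 4.16 FPKM then lay within their spread of each other.

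The make-up of the heavy chain pool moved with these unequal rises. The summed FPKM of the 4 heavy chains was 172 ± 11.7 in controls and 248 ± 12.7 in treated cells. HLA-E made up 52.8, 53.8 and 53.7% of that sum in controls and 47.0, 45.7 and 44.6% in treated cells, without overlap. HLA-C made up 32.8 ± 1.09% and 36.6 ± 1.04%, and HLA-B 12.4 ± 0.523% and 16.0 ± 1.94%. The ratio of the heavy chain sum to B2M was 1.61, 1.62 and 1.61 in controls and 1.28, 1.38 and 1.30 in treated cells. The size of this ratio rests on the summed exon lengths, 6079 bases for B2M and 2507 to 4342 for the heavy chains. It therefore does not show which transcript was more abundant, and only its difference between groups is described. The ratio of HLA-B to HLA-C did not separate the groups, at 0.379 ± 0.0289 and 0.438 ± 0.0641 (exact two-sided permutation p = 0.3). Every other ratio computed, with that of the heavy chain sum to B2M, had p = 0.1 in this permutation test, or 0.12 after Benjamini-Hochberg adjustment. A p of 0.1 is the smallest that 3 against 3 libraries can give, so no ratio could pass 0.05. The shares of the sum were not tested. These sums cover the 4 heavy chain genes named and not every class I gene of the cell.

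Other genes of the pathway were read from 7 lists, which like the members were chosen with earlier results of these data known. Of 56 genes tested in them, 20 were called higher and 1 lower, where 14.7% of all genes tested were called higher and 13.2% lower. The count of 1 was 2 without control replicate 2 or cepharanthine replicate 3. The same shares are the background of each list. The list of peptide trimming and immunoproteasome genes had 6 of 8 members higher and 0 lower (7 and 0 at an unadjusted p under 0.05, 6 and 0 by DESeq2), with a median log2 fold change of 0.66. PSME1, a subunit of the proteasome activator PA28, increased from 64.5 ± 6.46 to 113 ± 13.1 CPM (edgeR adjusted p = 3.6e-04), and its partner PSME2 from 80.8 ± 6.21 to 104 ± 5.05 CPM (edgeR adjusted p = 0.00708). PSMB8, a catalytic immunoproteasome subunit, had 12.3, 16.0 and 12.5 CPM in controls and 22.4, 22.2 and 26.1 CPM in treated cells, a log2 fold change of 0.79 ± 0.14 (edgeR adjusted p = 0.00205). ERAP1, which trims peptides in the endoplasmic reticulum, rose from 92.0 ± 1.29 to 132 ± 5.43 CPM (edgeR adjusted p = 4.2e-04). The remaining rises of this list were the other catalytic immunoproteasome subunits, PSMB9 with a log2 fold change of 1.06 ± 0.28 (edgeR adjusted p = 0.0179) and PSMB10 with 0.89 ± 0.20 (edgeR adjusted p = 0.00909), both named after their values were seen. The PSMB9 call ended without control replicate 1 or 2 or cepharanthine replicate 3, at 0.88, 1.0 and 0.88.

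Of 5 chaperones that help fold and load class I molecules, 2 rose and 1 fell, with a median of 0.14. Calnexin, encoded by CANX, which holds new heavy chains, rose from 1147 ± 61.3 to 1729.9 ± 119 CPM (edgeR adjusted p = 4.1e-04). PDIA3, the thiol oxidoreductase of the loading complex, rose from 1147 ± 8.06 to 1376 ± 33.7 CPM (edgeR adjusted p = 0.0119). The PDIA3 call ended without cepharanthine replicate 1 (log2 fold change 0.25), with a replicate block (0.26) and in limma on unfiltered FPKM (0.32). UGGT1, which marks misfolded glycoproteins for another folding round, fell from 212 ± 9.27 to 150.2 ± 10.7 CPM (edgeR adjusted p = 0.00126), and this call was lost after rescaling to TPM (log2 fold change -0.25) and in limma on unfiltered FPKM (-0.41). CALR, which encodes calreticulin, was at 2355 ± 97.8 and 2594 ± 32.4 CPM and did not pass (edgeR adjusted p = 0.146). It was called higher with library totals only (log2 fold change 0.21) and with TPM (0.38).

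Of 13 factors that act at class I promoters, 4 rose and 0 fell (7 and 0 at an unadjusted p under 0.05, 5 and 0 by DESeq2), with a median of 0.20. After rescaling to TPM, where the median log2 fold change over all genes tested was 0.26, 9 were called higher. IRF1, a transcription factor that activates class I genes, had 31.2, 24.8 and 22.2 CPM in controls and 57.1, 60.9 and 70.4 CPM in treated cells. The groups were far apart, with a log2 fold change of 1.27 ± 0.13 (edgeR adjusted p = 1.1e-04). CREB1 rose by 0.62 ± 0.08 and IRF2 by 0.62 ± 0.15 on the log2 scale, and the IRF2 call ended without cepharanthine replicate 2 (0.54). The 3 subunits of RFX and the 3 of NF-Y, named after their values were seen, were not called, with log2 fold changes of -0.07 for NFYA to 0.24 for NFYC, and NFYC was called higher with TPM (0.44).

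Of 8 genes of interferon receptor signalling, 4 rose and 0 fell (4 and 0 at an unadjusted p under 0.05 and by DESeq2), with a median of 0.22. The kinase JAK1 rose from 78.1 ± 6.20 to 129.8 ± 2.30 CPM (edgeR adjusted p = 1.2e-04). IRF9, the DNA-binding part of the ISGF3 complex, went up from 54.9 ± 9.78 to 84.0 ± 13.4 CPM (edgeR adjusted p = 0.0105). STAT2 and the receptor chain IFNGR2 rose less, by 0.27 ± 0.07 and 0.23 ± 0.07 on the log2 scale (edgeR adjusted p = 0.0218 and 0.0294). The IFNGR2 call ended whichever library was left out, at 0.21 to 0.25, and the STAT2 call without control replicate 1 or 3 or cepharanthine replicate 1 or 3, at 0.24 to 0.27. The count of 4 became 2 without control replicate 1 or 3 or cepharanthine replicate 1 or 3. It was also 2 with a replicate block and after quantile normalization of FPKM.

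Of 8 class I-like genes 2 rose and 0 fell (2 and 1 at an unadjusted p under 0.05, 2 and 0 by DESeq2), with a median of 0.08. MICB and ULBP2, ligands of the activating receptor NKG2D, rose from 38.6 ± 4.35 to 49.8 ± 2.60 CPM and from 11.7 ± 1.64 to 17.6 ± 2.85 CPM (edgeR adjusted p = 0.0182 and 0.0185). ULBP3, another NKG2D ligand, was at 9.19 ± 0.916 and 7.09 ± 0.198 CPM and did not pass (edgeR adjusted p = 0.0818), nor did MR1, which presents vitamin metabolites (edgeR adjusted p = 0.158). The count of 2 became 1 without control replicate 1 or 2 or cepharanthine replicate 1. It became 0 without cepharanthine replicate 2 and with a replicate block in the fit. Of 7 genes of class I turnover in the endoplasmic reticulum or at membranes, 2 rose and 0 fell (2 and 2 at an unadjusted p under 0.05, 2 and 0 by DESeq2), with a median of 0.09. The counts were 1 and 2 after quantile normalization of FPKM and 4 and 0 with TPM, and with a replicate block 1 was called higher. SEL1L, a scaffold of the degradation machinery, rose from 321 ± 14.2 to 469 ± 36.8 CPM (edgeR adjusted p = 7.6e-04). The channel protein DERL1 rose by 0.24 ± 0.07 on the log2 scale, a call that ended whichever single library but control replicate 2 was left out, at 0.20 to 0.27. The ubiquitin ligase genes MARCHF9 and TMEM129 were at 43.7 ± 2.61 and 37.2 ± 0.260 CPM and at 29.3 ± 3.59 and 24.5 ± 1.88 CPM and did not pass (edgeR adjusted p = 0.0538 and 0.119). MARCHF9 was called lower without control replicate 2 (-0.27), and both were called lower after quantile normalization (-0.26 and -0.27).

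MHC class II genes, which serve antigen presentation by specialised immune cells, were low. Of 10 listed, 7 were tested, and 0 were called higher and 0 lower by edgeR (0 and 2 at an unadjusted p under 0.05, 0 and 0 by DESeq2), with a median of -0.70. CD74, the invariant chain, was at 2.30 ± 0.150 CPM in controls and 1.41 ± 0.459 CPM in treated cells (edgeR adjusted p = 0.0973), and without cepharanthine replicate 3 it was called lower, at a log2 fold change of -1.0. HLA-DRA was at 0.386 ± 0.146 and 0.167 ± 0.0488 CPM, HLA-DPA1 at 0.623 ± 0.0807 and 0.214 ± 0.0782 CPM, and HLA-DMA at 9.12 ± 1.69 and 7.42 ± 0.838 CPM. None of these 3 genes passed the test. The difference between class I and class II responses was not tested.

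**Figure D3:**
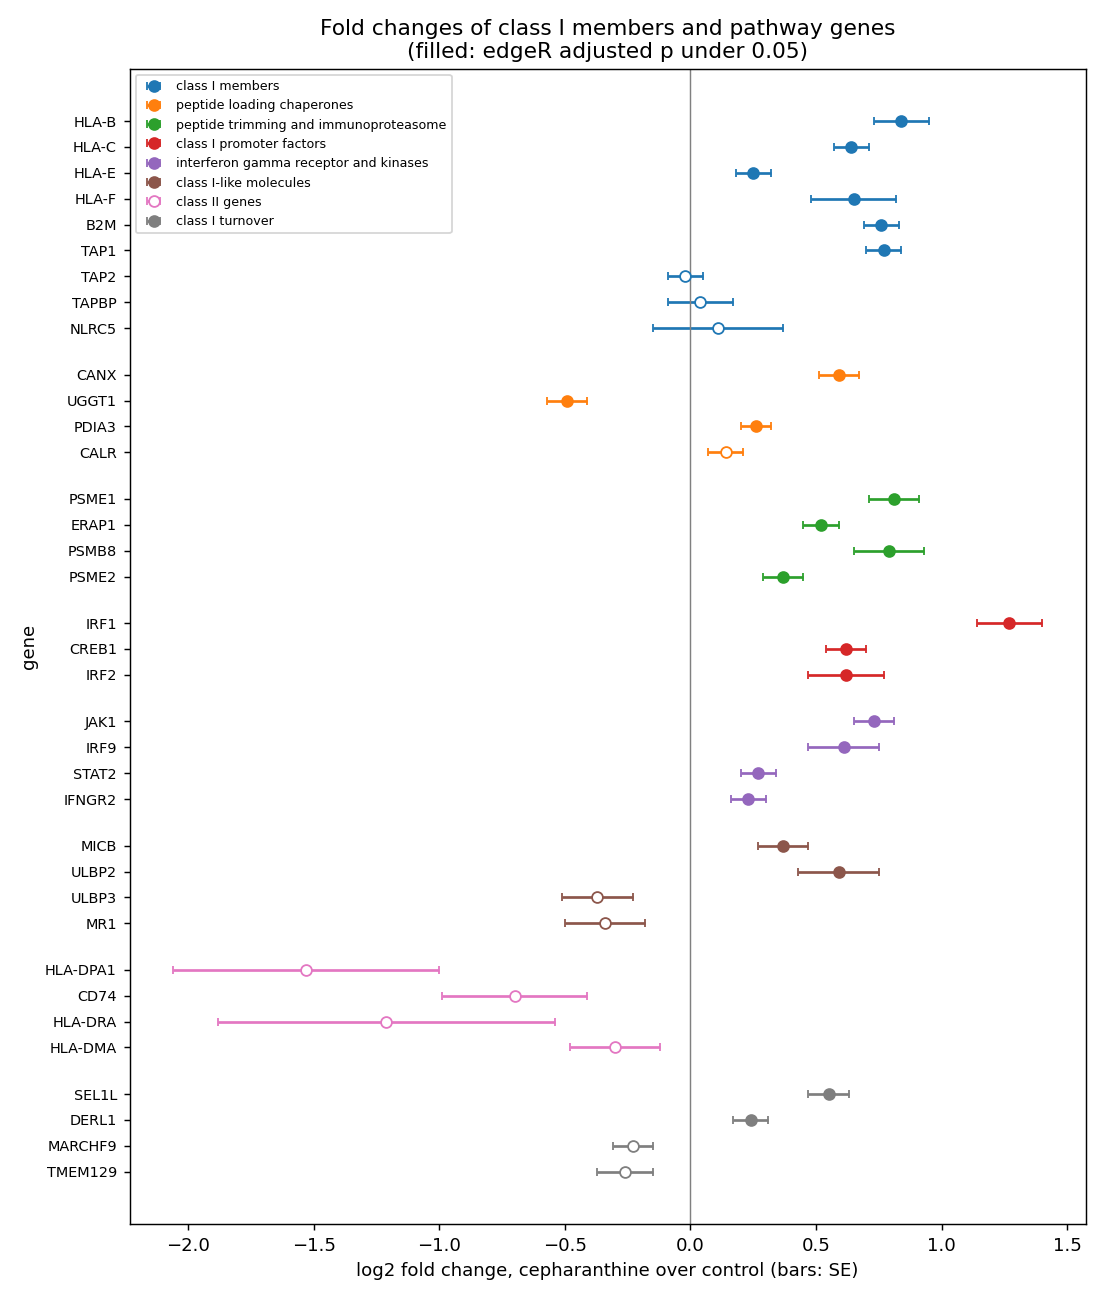
Log2 fold changes of the 9 members and of the pathway genes named in the text by their adjusted p, 3 or 4 to a list, with bars for the SE, and filled points where the edgeR adjusted p was under 0.05. The rises reach from 0.23 for IFNGR2 to 1.27 for IRF1, UGGT1 is the only filled point below 0, and the class II points are open.

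The genes whose pattern over the 6 libraries was most like that of B2M were not of the class I pathway. Likeness was the root mean square difference of log2 CPM, centred on the control mean, over 10196 genes. SNX8 (0.027), IL18 (0.028), TRIB3 (0.029), TPI1 (0.033) and CLIC1 (0.035) were closest. TAP1 ranked 10 at 0.042, HLA-C 211 at 0.107 and HLA-B 237 at 0.111. HLA-E ranked 2819 at 0.362. These ranks are a description over 6 libraries that share the group difference, and no test was made of them.

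Total counts were 52774506 to 68241156 per library. The share of counts from mitochondrially encoded genes moved with the groups, at 8.75 to 12.2% in controls and 4.86 to 6.61% in treated cells, and without these genes 6 members were again called higher. Epithelial keratin transcripts marked both groups as labelled, with KRT19 at 464 to 513 CPM over all libraries and not called. In the same list of 4 genes, the adhesion gene EPCAM fell from 54.6 ± 1.96 to 42.2 ± 1.73 CPM (edgeR adjusted p = 0.0048), a call lost with TPM (-0.13). The keratin gene KRT8 rose by 0.25 ± 0.07 on the log2 scale (edgeR adjusted p = 0.0242), a call that ended without control replicate 3 or any 1 treated library, at 0.21 to 0.27. The KRT8 call also ended with a replicate block (0.25), in limma on unfiltered FPKM (0.29) and after quantile normalization (0.16). Of 7 immune marker genes measured, the summed level was 3.92 to 5.04 CPM in controls and 2.62 to 3.83 CPM in treated cells, with the leukocyte gene PTPRC between 0.218 and 0.416 CPM and CD2 and CD163 at 0 in 5 of the libraries each. Of 7 endothelial and stromal markers the summed level was 46.6 to 50.2 CPM in controls and 21.1 to 26.2 CPM in treated cells. Nearly all of it was PECAM1, which was called lower, from 46.5 ± 2.46 to 21.0 ± 3.18 CPM (edgeR adjusted p = 8.7e-05). CDH5 and VWF, which define endothelium, reached at most 0.206 and 0.426 CPM. The part of these markers and of the mitochondrial share in the results was not tested. Fewer cells carrying a transcript and less of it per cell cannot be told apart in bulk RNA.

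**Figure D4:**
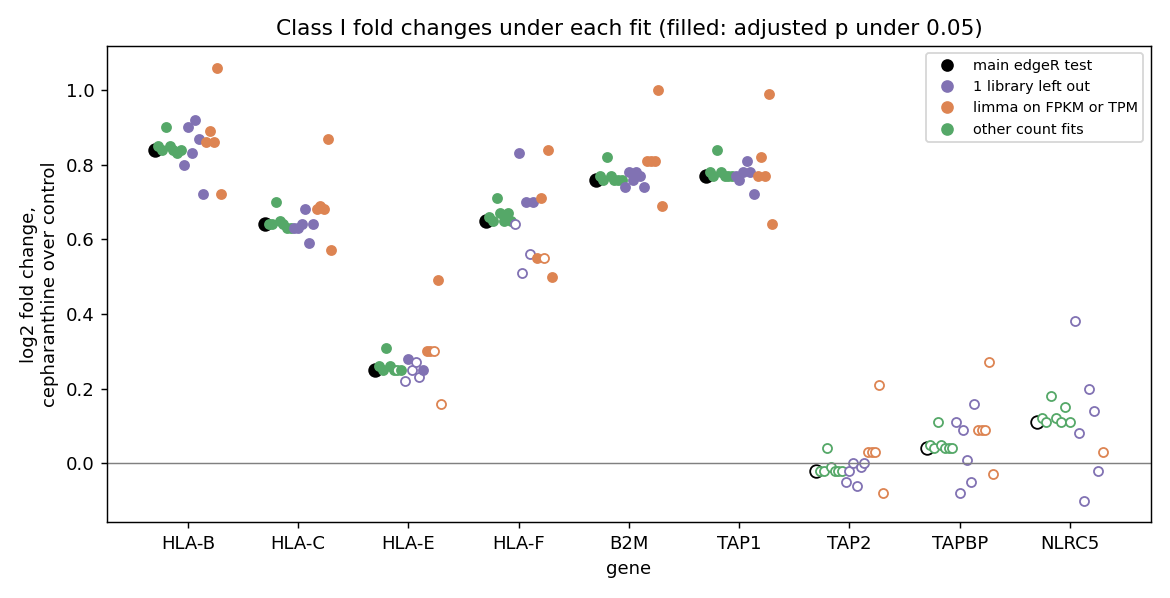
Log2 fold changes of the 9 members under the main edgeR test and each alternative, with filled points where the adjusted p was under 0.05. HLA-B, HLA-C, B2M and TAP1 are filled in all 19 fits, HLA-E in 12 and HLA-F in 15, and TAP2, TAPBP and NLRC5, the last with 15 fits, in 0.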

How the data were processed

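RNA of 6 PC-3 libraries was extracted with TRIzol and prepared with a SMARTER mRNA-Seq kit, per the labels' protocols. The authors deposited raw read counts and FPKM per gene. The count columns, named so per the file headers, are whole numbers whose totals differ between libraries. The FPKM columns, per the file headers, served for levels between genes and for alternatives. Names of the 3 control columns differ from the titles, and group plus number gave their match. The submitters' processing notes name GRCm38, mm10 and hg38 without roles. Of the gene identifiers 96.8% are in GENCODE 29 (GRCh38), and 8 of the 9 members share a start or end with it, so coordinates are GRCh38. Which aligner, counter, strand setting and annotation were used is not given in the sources used here.

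After filterByExpr and TMM scaling, counts entered a quasi-likelihood test in edgeR 4.0.16 under R 4.3.3, two-sided and with no covariate, and Benjamini-Hochberg adjustment ran over all 21965 genes, with a threshold of 0.05. The SE is the absolute log2 fold change over the square root of F. Alternatives were DESeq2 1.42.0, RLE factors, library totals, other filters, a replicate block, each library left out, and limma 3.58.1 on log2(FPKM + 1) with other pseudocounts, filters and scalings. The test was also run on simulated counts with 200 changed genes, far fewer than the 6121 called in these data. That run therefore does not show how the test performs here. The text names the members, per list the 4 genes of smallest adjusted p, and the 5 genes closest to B2M, except 1 list gene that is counted but not reported here. The members and lists were chosen with earlier results of these data known. Floors cover counting error only.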

Additional observations from a re-analysis of the deposited data

How the results depend on the processing

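HLA-B, HLA-C, B2M and TAP1 were called higher in all 19 fits, with log2 fold changes of 0.72 to 1.06, 0.57 to 0.87, 0.69 to 1.0 and 0.64 to 0.99. Members called higher were 6 in the edgeR test, 5 with a replicate block and after quantile normalization of FPKM, 4 in limma on unfiltered FPKM, and 4 to 6 with a library left out. HLA-E lost its call with the replicate block (0.25), on unfiltered FPKM (0.30) and after quantile normalization (0.16), and HLA-F on unfiltered FPKM (0.55). Same-numbered libraries showed no shared deviation from their group means, with correlations of 0.00359, -0.00693 and -0.07. From 3 libraries per group these values cannot settle whether the numbers pair the libraries, and the labels do not say. The block took the genes called from 6121 to 4838 and the pathway genes called higher from 20 to 14. Over the fits that leave out a library the genes called were 4512 to 5701 and the pathway genes called higher 15 to 17. Limma on unfiltered FPKM called 3410 genes. With TPM the median change over all genes tested was 0.26 on the log2 scale, against 0.07 on FPKM as deposited, with 83.4% of its calls higher against 52.6% in the edgeR test and 61.5% with library totals only. The HLA-E log2 fold change was 0.49 after rescaling to TPM. Rescaling to TPM divides each FPKM by the summed FPKM of its library. These sums were 266495 to 289915 in controls and 244091 to 253919 in treated libraries. Why the sums differ between groups, and the cause of the shift with library totals, was not tested. NLRC5 rests on 120 to 306 counts per library, and its SE of 0.26 was the widest of the members. Of 614 further fits of 35 genes that are no members, 553 kept the call or the lack of one, 54 lost a call, 7 gained one and 0 reversed a call. Genes that were not called could change sign among the 553, as NFYA did from -0.07 to 0.17 with TPM.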

Other observations

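The table also holds class I pseudogenes, whose sequence is close to that of the class I genes, and which were chosen here after their values were seen. HLA-H was called higher, with a log2 fold change of 0.54 ± 0.15 (edgeR adjusted p = 0.0245), a call that ended without control replicate 1 or 3 or cepharanthine replicate 1 or 3, at 0.45 to 0.53. The HLA-H call also ended with a replicate block and in limma on unfiltered FPKM, both at 0.55. HLA-L had 0.64 ± 0.22 (edgeR adjusted p = 0.0557), HLA-J 0.29 ± 0.22 (edgeR adjusted p = 0.361) and HLA-V 0.20 ± 0.12 (edgeR adjusted p = 0.239), and these 3 did not pass. HLA-V had the highest level of these, at 47.0 ± 7.32 CPM in controls and 54.0 ± 4.16 CPM in treated cells, and HLA-H was at 10.9 ± 1.60 and 15.8 ± 2.16 CPM. Whether reads from class I genes were counted at these loci was not tested.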
